A study of Homo sapiens with 6 samples.

Results

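Transcripts of the D cyclins and of the CDK inhibitors were followed in HLE cells, an established human hepatocellular carcinoma line, after knockdown of ZNF281, a zinc finger transcription factor. The 9 genes were taken by symbol from the 19503 named genes of the deposited table: CCND1, CCND2 and CCND3, which encode cyclins D1, D2 and D3; CDKN1B and CDKN1C, which encode p27 and p57; and CDKN2A, CDKN2B, CDKN2C and CDKN2D, the INK4 genes. CDKN1A, which encodes p21 and belongs to the family of CDKN1B and CDKN1C, is given in passing only. RNA came from a line with the ZNF281 shRNA kd.1, a line with the ZNF281 shRNA kd.2, whose target lies elsewhere in the ZNF281 coding sequence, and a control line with a control shRNA. All 3 lines were infected with lentivirus at a multiplicity of 10 and kept under puromycin for 7 days, and each gave 2 total RNA libraries. Knockdown was constitutive, and whether a line was 1 clone or a mixed population is not given in the sources used here. Levels are FPKM, fragments scaled to transcript length and library total, so that levels of different genes can be set side by side.

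D cyclins are made when growth signals arrive, bind CDK4 or CDK6 and start the phosphorylation of the retinoblastoma protein, which releases E2F factors and lets the cell pass from G1 into S phase. INK4 proteins bind CDK4 and CDK6 directly and keep D cyclins off them, whereas p21, p27 and p57 bind assembled cyclin and CDK complexes and chiefly inhibit CDK2. In liver tumours CCND1 is a known target of amplification, and CDKN2A is often silenced or deleted.

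Library sums lay between 512672.6 and 575886.9 FPKM, and the sequencing depth behind them is unknown. On the log2 scale, the difference between duplicates had an SD of 0.147 for kd.1, 0.137 for kd.2 and 0.245 for the control over all tested genes. ZNF281 stood at 4.35 and 4.71 FPKM in kd.1, at 4.37 and 4.47 FPKM in kd.2, and at 9.52 and 8.43 FPKM in the control. Against control this was a log2 fold change of -0.97 for kd.1 and of -1.0 for kd.2, with limma adjusted p of 0.000249 for kd.1 and 0.000241 for kd.2. Of 7 hepatocyte and liver tumour markers in the table only SERPINA1 (1.88 to 3.17 FPKM) and HNF4A (0.45 to 1.2 FPKM) reached 1 FPKM in any library. APOA1, TTR and GPC3 were at or near 0, so the liver identity of the label was not visible in these markers. ALB, AFP and APOB, also chosen as markers, are not among the named genes, so their levels could not be looked at. The simple epithelial markers summed to 1190.4 to 1306.3 FPKM in kd.1, 2253.0 to 2319.5 FPKM in kd.2 and 2548.0 to 2615.3 FPKM in the control, with CDH1 and EPCAM near 0. The fibroblast markers summed to 621 to 628 FPKM in kd.1, 500 to 507 FPKM in kd.2 and 620 to 624 FPKM in the control. DCN, LUM and VIM carried these sums. The other fibroblast markers were low, with COL1A1 at 0.45 to 1.39 FPKM and PDGFRB at 0.24 to 0.46 FPKM. COL1A2 (0.0 to 0.02 FPKM) and COL3A1 (0.09 to 0.29 FPKM) were near 0. Endothelial, leukocyte and erythroid markers each summed to at most 3.01 FPKM. The epithelial sums differed between all lines, while the fibroblast sums were lower in kd.2 and overlapped between kd.1 and the control. The part of these differences in the results below was not tested.

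Of the 9, all but CCND2 passed the filter of 1 FPKM in at least 2 libraries, so 8 entered a fit over 10851 genes. A gene was called at a limma adjusted p under 0.05. In kd.1 against control, 2 of the 8 rose (CDKN1C and CDKN2B) and 4 fell (CCND1, CCND3, CDKN2C and CDKN2D), where 29.2% of all tested genes were called, 15.8% up and 13.4% down. In kd.2 against control, 2 rose (CCND1 and CDKN2B) and 2 fell (CDKN1C and CDKN2D), where 37.9% of all tested genes were called, 15.7% up and 22.2% down. The median log2 fold change of the 8 was -0.26 for kd.1, against 0.02 over all tested genes, and -0.07 for kd.2, against -0.03 over all tested genes. The libraries of kd.1 and control did not overlap for any of the 8, against 65.6% of all tested genes, and those of kd.2 and control did not overlap for 7 of the 8, against 71.4%. Both contrasts use the same control libraries. CCND1 and CDKN1C were thus called in opposite directions in the 2 knockdown lines, and CDKN2B and CDKN2D in the same direction.

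**Figure D1:**
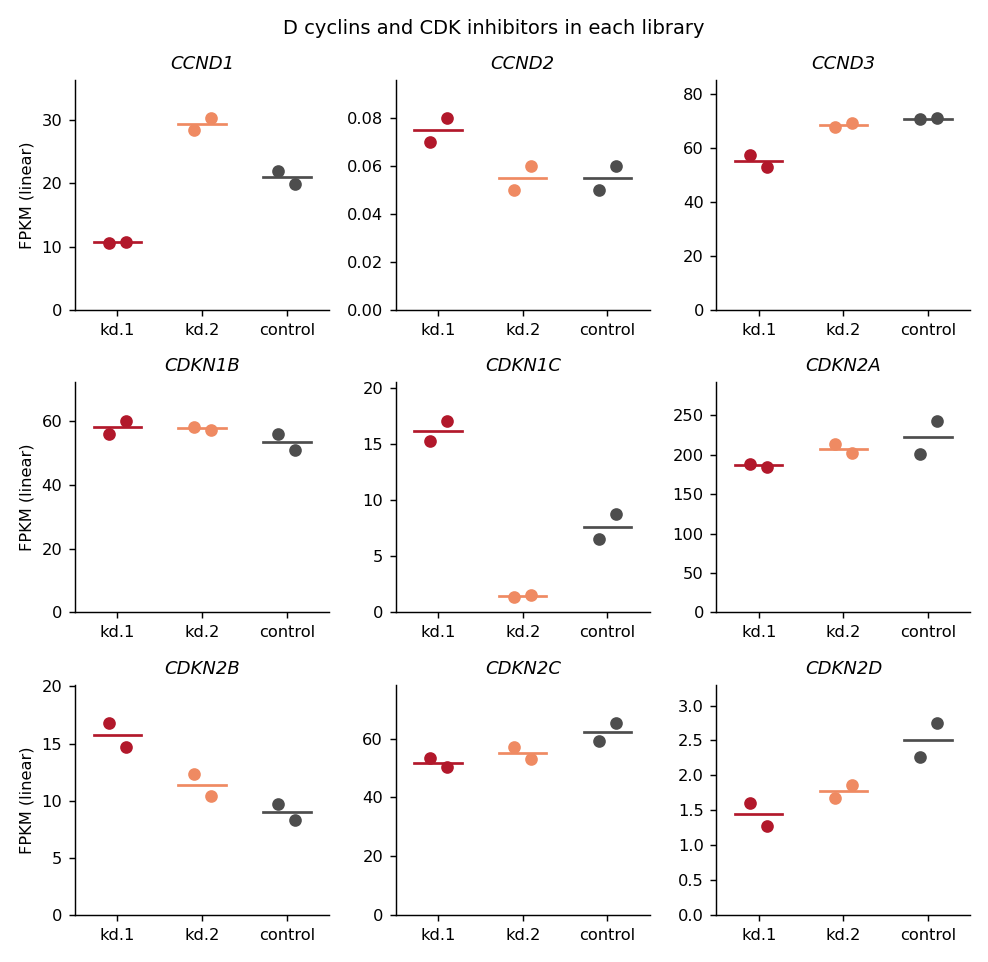
FPKM (linear axes that start at 0) of the 9 genes in the 2 libraries each of kd.1, kd.2 and the control; points are libraries and bars are group means. CCND1 and CDKN1C lay on opposite sides of the control in the 2 knockdown lines, and CCND2 stayed under 0.1 FPKM in every library.

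**Figure D2:**
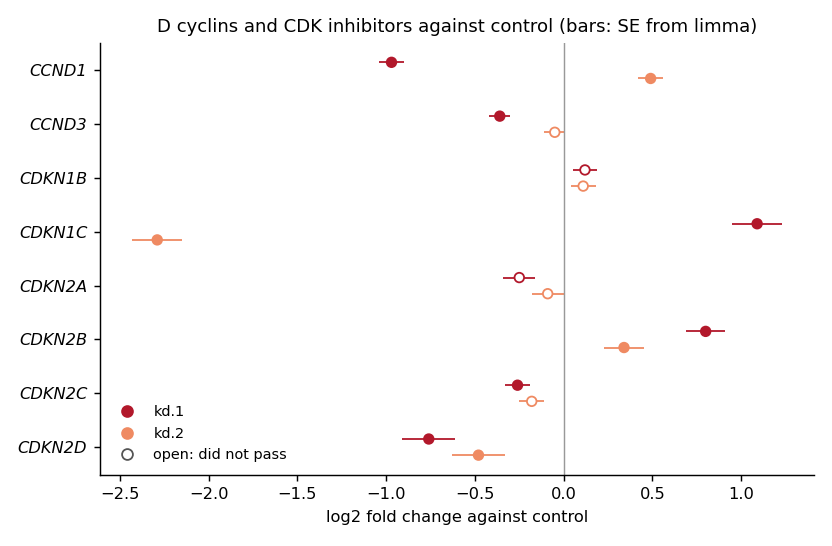
log2 fold change of the 8 tested genes in kd.1 and in kd.2 against control, with bars of 1 SE from limma; filled points passed an adjusted p of 0.05 and open points did not. CDKN1C spans the widest distance, with 1.09 in kd.1 and -2.29 in kd.2.

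CCND1, the D cyclin most often activated in tumours, was lower in kd.1 and higher in kd.2 than in the control. It stood at 10.7 and 10.7 FPKM in kd.1, at 28.5 and 30.3 FPKM in kd.2, and at 22.0 and 20.0 FPKM in the control. The 3 lines did not overlap, and the control lay between the knockdown lines. The log2 fold change was -0.97 (SE 0.07, limma adjusted p = 8.18e-05) in kd.1, a level 1.95-fold lower, and 0.49 (SE 0.07, adjusted p = 0.00189) in kd.2, a level 1.4-fold higher. By size of log2 fold change CCND1 ranked 210 of 10851 genes in kd.1 and 1367 in kd.2. Each call held in all 15 alternative settings. In bulk RNA, a smaller share of cells that express a gene and less of its RNA per cell cannot be told apart. CCND1 lies on chromosome 11 at 69641087 to 69654474 on the plus strand (GENCODE 29, GRCh38), and LTO1, listed in the table under its older symbol ORAOV1, overlaps it on the opposite strand. Overlaps given here are between the outer ends of genes, and whether exons are shared was not looked at. Whether reads were counted by strand is not given in the sources used here, so reads from any shared exon may not be told apart. ORAOV1 itself averaged 4.22 FPKM in kd.1, 3.73 FPKM in kd.2 and 4.50 FPKM in the control, well below CCND1.

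CCND3, the D cyclin with the highest level in these cells, fell in kd.1 and did not pass the test in kd.2. Its level was 57.4 and 52.9 FPKM in kd.1, 67.6 and 69.4 FPKM in kd.2, and 70.6 and 71.1 FPKM in the control. The kd.1 libraries lay apart from all others, while kd.2 came within a few FPKM of the control without overlapping it. In log2 terms it changed by -0.36 (SE 0.06, adjusted p = 0.00431) in kd.1, against -0.05 (SE 0.06, adjusted p = 0.569) in kd.2. With kd.1 replicate 2 left out, CCND3 no longer passed in kd.1 (adjusted p = 0.0557), and the kd.2 value turned to 0.05 when the libraries were scaled to a common FPKM sum. CCND3 lies on chromosome 6 at 41934933 to 42050357 on the minus strand. The noncoding gene AL513008.1 overlaps it on the opposite strand, with the same limit as for CCND1, and the small nuclear RNA gene RNU6-761P on the same strand.

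CCND2, the remaining D cyclin, had values near 0 throughout, at 0.07 and 0.08 FPKM in kd.1, 0.05 and 0.06 FPKM in kd.2, and 0.05 and 0.06 FPKM in the control. It lies on chromosome 12 at 4273772 to 4305350 on the plus strand, overlapped on the opposite strand by CCND2-AS1, with the same limit. The protein-coding gene AC008012.1 overlaps CCND2 on the same strand, where counting by strand would not separate reads from any shared exon. Summed over the 3 genes, D cyclin transcripts came to 65.9 ± 3.15 FPKM in kd.1, 98.0 ± 2.59 FPKM in kd.2 and 91.9 ± 1.04 FPKM in the control (SD, n = 2 each). CCND1 made up 16.2% ± 0.807 of that sum for kd.1, 30.0% ± 0.55 for kd.2 and 22.8% ± 1.27 for the control. The remainder was CCND3 almost entirely, so CCND3 was the main D cyclin transcript in every library, whichever way CCND1 moved.

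CDKN1C, which encodes p57 and is expressed mainly from the maternal chromosome, differed most of all 9 genes. It stood at 15.2 and 17.1 FPKM in kd.1, at 1.35 and 1.57 FPKM in kd.2, and at 6.51 and 8.72 FPKM in the control. No library of one line reached the range of another. The log2 fold change was 1.09 (SE 0.14, adjusted p = 0.00109) in kd.1, a level 2.12-fold higher, and -2.29 (SE 0.14, adjusted p = 5.73e-05) in kd.2, a level 4.91-fold lower. In kd.2 against control it ranked 10 of 10851 genes by size of log2 fold change, and in kd.1 it ranked 148. These calls held in all 15 alternative settings, with values from 0.88 to 1.29 in kd.1 and from -2.5 to -1.8 in kd.2. The gene lies on chromosome 11 at 2883213 to 2885773 on the minus strand, and no other annotated gene overlaps it.

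CDKN1B, which encodes p27, an inhibitor controlled largely by protein breakdown, was not called in either line. Its level was 56.2 and 60.3 FPKM in kd.1, 58.3 and 57.4 FPKM in kd.2, and 56.0 and 51.1 FPKM in the control. All knockdown libraries lay above both controls, the nearest by well under 1 FPKM. It differed from control by a log2 value of 0.12 (SE 0.07, adjusted p = 0.213) in kd.1 and 0.11 (SE 0.07, adjusted p = 0.218) in kd.2. Without control replicate 1 both passed, with adjusted p of 0.022 for kd.1 and 0.024 for kd.2. It lies on chromosome 12 at 12715058 to 12722371 on the plus strand, and AC008115.3, annotated as sense intronic, overlaps it on the same strand.

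CDKN1A, the p21 gene and a classical p53 target, stood at 25.9 and 21.2 FPKM in kd.1, at 22.2 and 21.02 FPKM in kd.2, and at 37.5 and 43.9 FPKM in the control, with log2 fold changes of -0.79 (adjusted p = 0.00125) for kd.1 and -0.91 (adjusted p = 0.000681) for kd.2. Within the pair of p27 and p57 transcripts, CDKN1C held 21.7% ± 0.531 of the summed FPKM for kd.1, 2.46% ± 0.283 for kd.2 and 12.5% ± 2.95 for the control (SD, n = 2 each). With p21 added, the 3 transcripts summed to 97.9 ± 0.962 FPKM in kd.1, 80.9 ± 1.36 FPKM in kd.2 and 102 ± 2.62 FPKM in the control. CDKN1B stayed the largest of the 3 in each line.

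CDKN2A and CDKN2B are neighbours on 9p21 and encode the INK4 proteins p16 and p15. CDKN2A lies on chromosome 9 at 21967753 to 21995301 and CDKN2B at 22002903 to 22009363, both on the minus strand, and the antisense gene CDKN2B-AS1 and the protein-coding gene AL359922.1, on the opposite strand, overlap both. CDKN2A has a further start upstream, from which p14ARF, an activator of p53 unrelated in sequence to p16, is read in another frame, and the table's CDKN2A row does not separate the p16 and p14ARF transcripts. The genes are near copies: over the coding sequence (GENCODE 29), 468 bases for p16 and 414 for p15, 339 of 408 aligned positions (83.1%) were identical, and the longest identical run was 80 bases. Of the 50-base words of the 3911-base CDKN2B transcript, 0.803% also occur in CDKN2A. Reads that fall on that run could have been split between the rows, which touches a small part of the CDKN2B transcript. CDKN2A averaged 222 FPKM and CDKN2B 9.0 FPKM in the control, so a small share of misplaced CDKN2A reads could still weigh on CDKN2B. Stretches that are alike but not identical were not counted, and the size of the effect was not tested.

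The RefSeq promoters of the 2 genes (GRCh38.p14, 250 bases before to 50 after a start, minus strand) are shown because CDKN2B was called in both lines and CDKN2A in neither. Whether the changes of the 2 genes differ was not tested. Capitals mark the GC box GGGCGG, known as a binding site of Sp1, or the G-rich word GGGGAGGGG, searched on both strands with any overlap allowed; a GC box on the other strand appears as CCGCCC. The first lies at chr9:21995275-21995574, the second at chr9:21974808-21975107 and the third at chr9:22009256-22009555.
CDKN2A, p14ARF start: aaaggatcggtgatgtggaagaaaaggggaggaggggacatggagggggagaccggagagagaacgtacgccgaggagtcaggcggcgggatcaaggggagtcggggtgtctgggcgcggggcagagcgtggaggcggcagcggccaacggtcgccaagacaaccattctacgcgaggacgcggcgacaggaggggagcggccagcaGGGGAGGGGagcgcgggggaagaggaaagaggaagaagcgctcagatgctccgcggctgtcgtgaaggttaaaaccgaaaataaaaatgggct
CDKN2A, p16 start: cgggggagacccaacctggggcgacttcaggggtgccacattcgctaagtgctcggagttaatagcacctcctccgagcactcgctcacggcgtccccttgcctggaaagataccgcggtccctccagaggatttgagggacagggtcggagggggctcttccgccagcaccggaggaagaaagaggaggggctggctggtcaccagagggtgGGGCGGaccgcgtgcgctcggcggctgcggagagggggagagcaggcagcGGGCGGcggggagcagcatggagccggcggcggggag
CDKN2B: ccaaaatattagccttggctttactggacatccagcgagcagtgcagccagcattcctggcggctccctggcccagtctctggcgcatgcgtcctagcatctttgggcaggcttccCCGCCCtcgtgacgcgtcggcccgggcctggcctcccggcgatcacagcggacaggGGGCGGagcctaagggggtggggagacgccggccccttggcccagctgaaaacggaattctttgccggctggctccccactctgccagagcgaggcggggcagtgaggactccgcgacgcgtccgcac
The p16 and the CDKN2B promoter each held 2 GC boxes, and the p14ARF promoter held 1 GGGGAGGGG and no GC box. Promoter entries were matched for 6 of the 9 genes, 11 starts in all, with more than 1 start each for CCND3, CDKN2A and CDKN2C. None was matched for CCND1, CCND2 or CDKN1C, so the counts below say nothing of these genes. GGGCGG was found in 8 of these 11, against 45.0% of 35116 promoters of the same length, and GGGGAGGGG in 1 of 11, against 7.81%. Of other words searched, CACGTG was in 2 of 11 (7.26% of all promoters), and TATAAA (11.5%) and TTTGGCGC (0.652%) were in none. A match describes these letters only.

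CDKN2B rose in kd.1 and, by less, in kd.2. It stood at 16.8 and 14.7 FPKM in kd.1, at 12.4 and 10.4 FPKM in kd.2, and at 9.67 and 8.32 FPKM in the control. The 3 lines did not overlap, with kd.1 highest and the control lowest. The log2 fold change was 0.80 (SE 0.11, adjusted p = 0.00148) in kd.1, a level 1.74-fold higher, and 0.34 (SE 0.11, adjusted p = 0.0443) in kd.2, a level 1.26-fold higher. Its kd.1 call held in all 15 settings, whereas the kd.2 call was lost in 8 of them, with adjusted p between 0.0508 (kd.1 replicate 2 left out) and 0.294 (kd.2 replicate 1 left out).

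CDKN2A had the highest level of the 9 genes and was not called in either line. Its level was 188 and 185 FPKM in kd.1, 213 and 202 FPKM in kd.2, and 201 and 243 FPKM in the control. The control libraries were the farthest apart, and the kd.2 libraries fell between them. Its log2 fold change was -0.25 (SE 0.09, adjusted p = 0.0732) in kd.1 and -0.09 (SE 0.09, adjusted p = 0.447) in kd.2. With control replicate 1 left out it passed as lower, at -0.38 for kd.1 and -0.23 for kd.2, with adjusted p of 0.000481 for kd.1 and 0.00465 for kd.2. With control replicate 2 left out the kd.2 value turned to 0.05, and with a common FPKM sum it was 0.01. Set against CDKN2A, the CDKN2B level came to 8.45% ± 0.709 for kd.1, 5.48% ± 0.456 for kd.2 and 4.11% ± 0.983 for the control (SD, n = 2 each). Whether reads were counted by strand is not known here, so reads from any exon that these genes share with CDKN2B-AS1 or AL359922.1 may not be told apart. Shared exons were not looked at.

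CDKN2C, which encodes p18, fell in kd.1. Its libraries held 53.5 and 50.2 FPKM in kd.1, 57.1 and 53.1 FPKM in kd.2, and 59.2 and 65.3 FPKM in the control. All knockdown libraries lay below both controls, and the knockdown lines overlapped each other. This gave a log2 fold change of -0.26 (SE 0.07, adjusted p = 0.0289) in kd.1 and -0.18 (SE 0.07, adjusted p = 0.0893) in kd.2. The kd.1 call was lost in 8 of 15 settings, with adjusted p up to 0.192 without kd.1 replicate 2, and kd.2 passed without control replicate 1 (adjusted p = 0.0101). The gene lies on chromosome 1 at 50960745 to 50974633 on the plus strand.

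CDKN2D, which encodes p19, was the lowest of the INK4 transcripts and fell in both lines. It stood at 1.61 and 1.27 FPKM in kd.1, at 1.68 and 1.86 FPKM in kd.2, and at 2.27 and 2.75 FPKM in the control. Every knockdown library lay below both controls. As a log2 fold change this was -0.76 (SE 0.15, adjusted p = 0.00704) in kd.1, a level 1.7-fold lower, and -0.48 (SE 0.15, adjusted p = 0.0362) in kd.2, a level 1.39-fold lower. CDKN2D no longer passed in kd.1 with kd.1 replicate 2 left out (adjusted p = 0.0569), and the kd.2 call was lost in 6 of 15 settings, with adjusted p up to 0.194 without kd.2 replicate 1. CDKN2D lies on chromosome 19 at 10566462 to 10569059 on the minus strand. Together the 4 INK4 transcripts summed to 255 ± 5.9 FPKM in kd.1, 276 ± 11.9 FPKM in kd.2 and 296 ± 33.5 FPKM in the control (SD, n = 2 each), of which CDKN2A held 73.0% for kd.1, 75.3% for kd.2 and 75.0% for the control.

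Set directly against each other, kd.2 and kd.1 differed in 4 of the 8 tested genes, 2 higher and 2 lower in kd.2, where 32.2% of all tested genes were called, 11.9% up and 20.3% down. CDKN1C was 10.4-fold lower in kd.2 (1.46 ± 0.156 FPKM) than in kd.1 (16.1 ± 1.32 FPKM; SD, n = 2 each), with a log2 fold change of -3.38 (SE 0.14, limma adjusted p = 5.55e-06). In this contrast only 2 of the 10851 genes had a larger log2 fold change in either direction. CCND1 was 2.74-fold higher in kd.2 (29.4 ± 1.32 FPKM) than in kd.1 (10.7 ± 0.0212 FPKM), with a log2 fold change of 1.45 (SE 0.07, adjusted p = 8.3e-06), and ranked 85. CCND3 was 1.24-fold higher (log2 0.31, SE 0.06, adjusted p = 0.00632) and CDKN2B 1.38-fold lower (log2 -0.47, SE 0.11, adjusted p = 0.0139).

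The remaining 4 genes did not pass between the knockdown lines. Their log2 fold changes in kd.2 against kd.1 were -0.01 for CDKN1B, 0.16 for CDKN2A, 0.09 for CDKN2C and 0.29 for CDKN2D. Libraries of kd.2 and kd.1 overlapped for CDKN1B and CDKN2C and did not overlap for 6 of the 8, against 77.2% of all tested genes. CDKN2A did pass when the control libraries were left out of the fit (adjusted p = 0.0122). The CDKN1C and CCND1 calls held in all 15 settings, while CCND3 lost its call when any of 3 libraries was left out, with an adjusted p of 0.0819 for kd.1 replicate 2, 0.0581 for kd.2 replicate 1 and 0.0763 for kd.2 replicate 2. CDKN2B lost its call when kd.1 replicate 1 (adjusted p = 0.105) or kd.2 replicate 2 (adjusted p = 0.127) was left out.

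**Figure D3:**
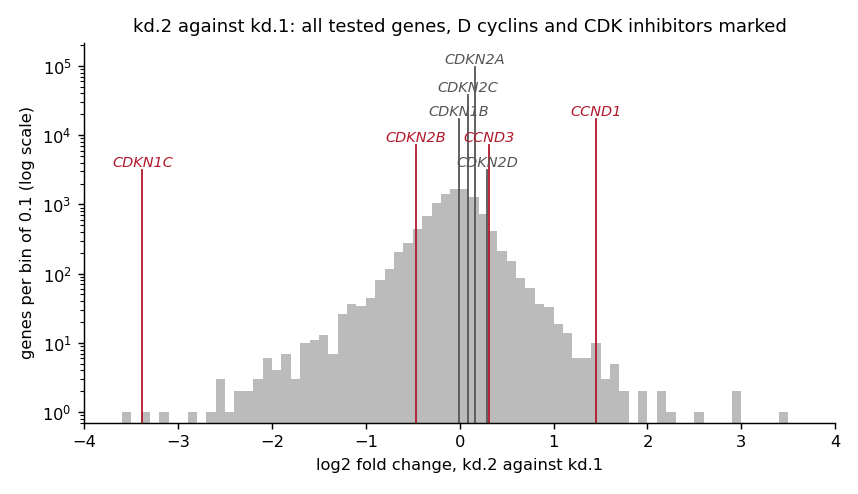
Histogram of log2 fold changes of kd.2 against kd.1 over the 10851 tested genes (genes per bin on a log axis), with a vertical line for each of the 8 D cyclin and CDK inhibitor genes, red where the adjusted p was under 0.05; line heights are set only to separate the names. CDKN1C at -3.38 lies at the far left end of the distribution and CCND1 at 1.45 far to the right.

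Averaged over both knockdown lines against control, 1 of the 8 genes rose (CDKN2B, log2 0.57, adjusted p = 0.00386) and 5 fell, where 34.7% of all tested genes were called, 16.1% up and 18.6% down. The 5 include CCND1 (log2 -0.24, adjusted p = 0.0197) and CDKN1C (log2 -0.60, adjusted p = 0.00769), for which the mean joins changes of opposite sign and describes neither line. CCND3 and CDKN2C are also among the 5. For CDKN2D the mean was -0.62 (adjusted p = 0.00866), a call that held in all 14 settings that could be run, as did those of CDKN2B and CDKN1C, while CCND1, CCND3 and CDKN2C lost theirs in 4 to 8 settings.

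Among the genes on which D cyclins and inhibitors act, the kinase CDK4 was lower in both knockdown lines and cyclin E2 in kd.1. Of 24 genes of the G1 to S machinery, all tested, 3 rose and 2 fell in kd.1, with a median log2 fold change of 0.03, and 2 rose and 5 fell in kd.2, with a median of -0.04. These 5 and 7 calls among 24 genes are a smaller share than the 29.2% (kd.1) and 37.9% (kd.2) called over all tested genes. CDK4, the kinase partner of D cyclins, averaged 89.1 ± 3.23 FPKM in kd.1, 90.8 ± 1.56 FPKM in kd.2 and 110 ± 4.3 FPKM in the control (SD, n = 2 each), and fell in both (kd.1 log2 -0.30, adjusted p = 0.00897; kd.2 log2 -0.27, adjusted p = 0.0111). CCNE2, the cyclin E2 gene and an E2F target, averaged 12.4 FPKM in kd.1, 19.4 FPKM in kd.2 and 18.2 FPKM in the control. It fell in kd.1 (log2 -0.54, adjusted p = 0.00339), was not called in kd.2 (log2 0.09, adjusted p = 0.434) and was higher in kd.2 than in kd.1 (log2 0.63, adjusted p = 0.00113). In kd.1 and kd.2 CCNE2 stood in the same order as CCND1 and CCND3, which most called genes of the list did not share. Of the 24, 2 were higher and 5 lower in kd.2 than in kd.1, where 32.2% of all tested genes were called. The lower ones include E2F1 (log2 -0.39, adjusted p = 0.00399) and E2F2 (log2 -0.56, adjusted p = 0.00174). CCNE1 was not called between the lines (log2 -0.02, adjusted p = 0.816). E2F1 and CCNE1 were chosen after their values were seen and not followed over the alternative settings.

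E2F7, a repressive E2F, rose in kd.1 (log2 0.60, adjusted p = 0.00398; 5.41 FPKM in kd.1 and 3.54 FPKM in the control) and was not called in kd.2 (log2 0.28, adjusted p = 0.064). E2F2, an activating E2F, fell in kd.2 (log2 -0.46, adjusted p = 0.00481; 5.02 FPKM in kd.2 and 6.95 FPKM in the control). RBL2, which encodes the retinoblastoma relative p130, rose in kd.2 (log2 0.34, adjusted p = 0.0253). RB1 and CDK6, chosen after their values were seen, rose in kd.1 (RB1 log2 0.48, adjusted p = 0.0132; CDK6 log2 0.31, adjusted p = 0.0476) and were not called in kd.2. The CCNE2 calls and the E2F7 call held in all 15 settings, while CDK4 lost its kd.1 call without kd.1 replicate 2 (adjusted p = 0.1) and its kd.2 call in 3 settings (adjusted p up to 0.109 without kd.2 replicate 1). Against control, E2F2 lost its kd.2 call without kd.2 replicate 2 and RBL2 its kd.2 call in 3 settings. RB1 lost its kd.1 call without either kd.1 library, and CDK6 its kd.1 call in 10 settings.

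**Figure D4:**
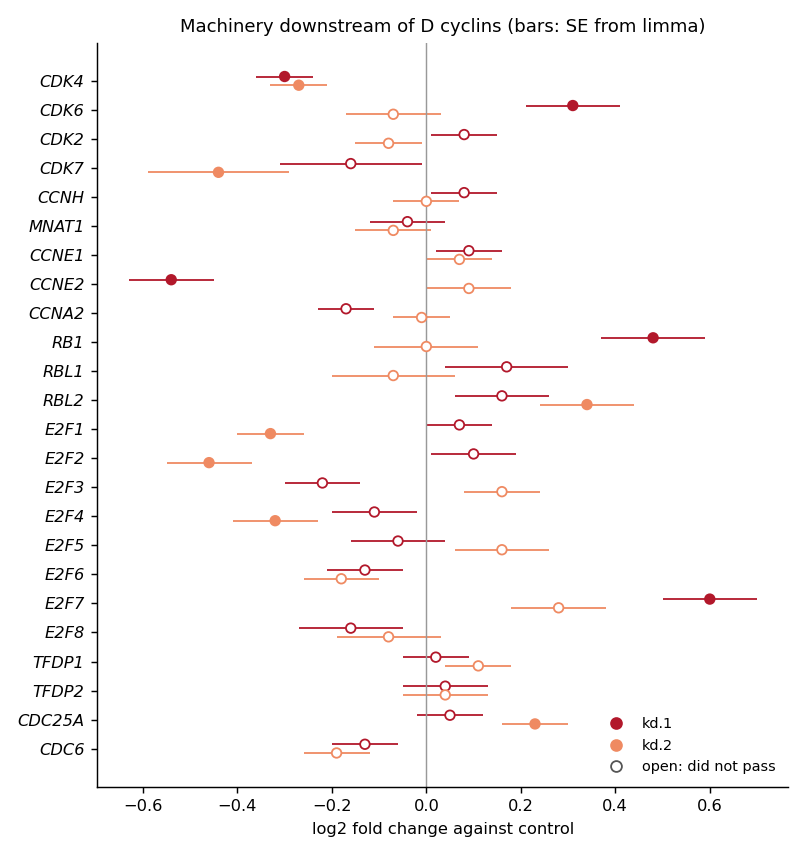
log2 fold change against control of the 24 genes of the G1 to S machinery in kd.1 and in kd.2, with bars of 1 SE from limma; filled points passed an adjusted p of 0.05. CDK4 is the gene with filled points of the same sign in both lines, and CCNE2 and E2F7 carry the largest changes of kd.1.

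Of 20 genes for the turnover and folding of D cyclins, CDK4, CDK6 and p27, 1 rose and 4 fell in kd.1 (median log2 fold change 0.06) and 2 rose and 4 fell in kd.2 (median -0.01). The 5 and 6 calls among 20 genes compare with 29.2% (kd.1) and 37.9% (kd.2) of all tested genes, and are no larger a share. SKP2, the F-box protein that marks p27 for breakdown, averaged 56.1 ± 2.35 FPKM in kd.1, 55.3 ± 2.02 FPKM in kd.2 and 43.7 ± 4.08 FPKM in the control (SD, n = 2 each), and rose in both (kd.1 log2 0.36, adjusted p = 0.0101; kd.2 log2 0.34, adjusted p = 0.0105). CKS1B, the SKP2 cofactor, fell in both (kd.1 log2 -0.36, adjusted p = 0.0084; kd.2 log2 -0.25, adjusted p = 0.0308), as did its paralog CKS2 (kd.1 log2 -0.44, adjusted p = 0.00379; kd.2 log2 -0.34, adjusted p = 0.0094). FBXO4, an F-box protein described for cyclin D1 breakdown, averaged 25.6 FPKM in kd.1, 22.4 FPKM in kd.2 and 31.4 FPKM in the control, and fell in both (kd.1 log2 -0.29, adjusted p = 0.00797; kd.2 log2 -0.49, adjusted p = 0.000804). SKP1, the adaptor of SKP2, fell in kd.2 (log2 -0.21, adjusted p = 0.0467), and RBX1, the RING subunit of the same ligase, in kd.1 (log2 -0.36, adjusted p = 0.0311). The transcripts of the p27 ligase thus moved in different directions, beside a CDKN1B transcript that was not called. CKS2 in kd.1 and FBXO4 in kd.2 held in all 15 settings, and each other call named here was lost in at least 1. SKP2 and CKS1B lost theirs in kd.1 without kd.1 replicate 2 (adjusted p of 0.0836 for SKP2 and 0.0864 for CKS1B), and SKP2 and CKS2 theirs in kd.2 without either kd.2 library (adjusted p up to 0.099 for SKP2 and 0.0859 for CKS2). FBXO4 in kd.1 was lost in 3 settings, RBX1 in 7, CKS1B in kd.2 in 8 and SKP1 in 11.

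Of 24 upstream regulators of D cyclin and INK4 transcription, 3 rose and 2 fell in kd.1 (median log2 fold change 0.04), and 4 rose and 3 fell in kd.2 (median 0.06). Between the knockdown lines 6 were higher and 3 lower in kd.2. Over all tested genes 29.2% were called in kd.1, 37.9% in kd.2 and 32.2% between the lines, so the list's shares were near or below those of all genes. FOSL1, an AP-1 subunit, averaged 11.7 ± 0.53 FPKM in kd.1, 20.4 ± 0.417 FPKM in kd.2 and 13.1 ± 0.141 FPKM in the control (SD, n = 2 each). It rose in kd.2 (log2 0.64, adjusted p = 0.000451), was not called in kd.1 (log2 -0.15, adjusted p = 0.12) and was higher in kd.2 than in kd.1 (log2 0.79, adjusted p = 9.66e-05). JUNB, another AP-1 subunit, rose in kd.2 (log2 0.38, adjusted p = 0.00637), at 39.7 FPKM in kd.2 and 30.4 FPKM in the control. ETS1, a transcription factor downstream of growth signals, fell in kd.1 (log2 -0.36, adjusted p = 0.0296) and rose in kd.2 (log2 0.33, adjusted p = 0.0351), the same signs as CCND1. ETS2, also in the list, had the opposite signs and was not called in kd.1 (log2 0.25, adjusted p = 0.108) or kd.2 (log2 -0.19, adjusted p = 0.184). It was lower in kd.2 than in kd.1 (log2 -0.45, adjusted p = 0.0141). ETS2 was chosen after its values were seen and not followed over the alternative settings.

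BMI1, a Polycomb protein known to repress the INK4 locus, rose in kd.2 (log2 0.70, adjusted p = 0.0133), at 14.5 and 15.6 FPKM in kd.2 and 11.5 and 7.41 FPKM in the control, and was not called in kd.1 (log2 0.18, adjusted p = 0.451). RNF2, the Polycomb ubiquitin ligase, rose in kd.1 (log2 0.30, adjusted p = 0.0399). MEN1, which encodes menin, an activator of CDKN1B and CDKN2C in mouse endocrine cells, fell in kd.2 (log2 -0.47, adjusted p = 0.00249), at 16.9 FPKM in kd.2 and 23.4 FPKM in the control. TCF7L2, a nuclear effector of WNT signalling, fell in kd.1 (log2 -0.38, adjusted p = 0.0115). ID1, an inhibitor of helix-loop-helix factors, was not called in kd.1 (log2 0.31, adjusted p = 0.0771) or in kd.2 (log2 0.29, adjusted p = 0.0793). The FOSL1 and MEN1 calls given here held in all 15 settings, BMI1 and JUNB lost theirs in kd.2 without either kd.2 library (adjusted p up to 0.0912 for BMI1 and 0.0603 for JUNB), TCF7L2 was lost in 3 settings, RNF2 in 9, and ETS1 in 7 for kd.1 and 6 for kd.2.

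Neighbouring genes were followed to show how far along the chromosome the values of CDKN1C, CDKN2A, CDKN2B and CCND1 were shared. On 11p15, 4 of 8 listed neighbours of CDKN1C in the table were tested, of which 1 rose in kd.1 and 2 fell in kd.2, with median log2 fold changes of 0.29 for kd.1 and -0.27 for kd.2. With 15.8% of all tested genes called up in kd.1 and 22.2% called down in kd.2, counts this small say nothing particular of these 4 genes. SLC22A18, an imprinted transporter gene, stood at 1.70 ± 0.134 FPKM in kd.1, 0.62 ± 0.113 FPKM in kd.2 and 1.15 ± 0.0707 FPKM in the control (SD, n = 2 each), higher in kd.1 (log2 0.52, adjusted p = 0.0361) and lower in kd.2 (log2 -0.80, adjusted p = 0.00546), the signs of CDKN1C. NAP1L4, a histone chaperone gene, fell in kd.2 (log2 -0.57, adjusted p = 0.000347), at 48.9 FPKM in kd.2 and 72.7 FPKM in the control, and was not called in kd.1 (log2 -0.09, adjusted p = 0.265). PHLDA2 and CD81 were not called in either line, with log2 fold changes between 0.03 and 0.52. The NAP1L4 call held in all 15 settings, while SLC22A18 lost its kd.1 call in 4 of them (adjusted p up to 0.201 without kd.1 replicate 2) and its kd.2 call without kd.2 replicate 1 (adjusted p = 0.0582).

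On 9p21, 4 of 7 listed neighbours were tested, and 3 of them rose in each line, with median log2 fold changes of 0.49 for kd.1 and 0.40 for kd.2, where 15.8% (kd.1) and 15.7% (kd.2) of all tested genes were called up. MTAP, the methylthioadenosine phosphorylase gene next to CDKN2A, averaged 17.5 ± 0.544 FPKM in kd.1, 20.6 ± 0.0636 FPKM in kd.2 and 12.1 ± 0.544 FPKM in the control (SD, n = 2 each), with log2 fold changes of 0.52 (adjusted p = 0.00103) in kd.1 and 0.76 (adjusted p = 0.000215) in kd.2. MLLT3, a transcription elongation gene, rose by more in kd.1 (log2 0.77, adjusted p = 0.000389) than in kd.2 (log2 0.38, adjusted p = 0.00808), and kd.2 was lower than kd.1 in the direct test (log2 -0.39, adjusted p = 0.00807). KLHL9, a ubiquitin ligase adaptor gene, rose in both lines (kd.1 log2 0.45, adjusted p = 0.0062; kd.2 log2 0.41, adjusted p = 0.00744). FOCAD, the other tested neighbour, was not called in kd.1 (log2 0.35, adjusted p = 0.53) or in kd.2 (log2 -0.15, adjusted p = 0.781). Its control libraries stood far apart, at 83.2 and 43.5 FPKM. CDKN2A, which lies between MTAP and CDKN2B, was not called in either line. Little can be read from 4 tested neighbours. MTAP held in both lines, and KLHL9 and MLLT3 in kd.1, in all 15 settings; in kd.2 KLHL9 and MLLT3 were lost without either kd.2 library (adjusted p up to 0.0661 for KLHL9 and 0.0744 for MLLT3), and MLLT3 in kd.2 against kd.1 in 3 settings.

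On 11q13, 5 neighbours of CCND1 were tested, with a median log2 fold change of 0.13 in each line. In kd.1, where CCND1 fell, limma called 0 of the 5, and 1 had an unadjusted p under 0.05; over all tested genes 29.2% were called in kd.1 and 37.9% in kd.2, so little can be read from 5 genes. In kd.2, 2 rose and 1 fell: PPFIA1, which encodes liprin alpha 1, with log2 0.42 (adjusted p = 0.00282), CTTN, the cortactin gene, with log2 0.28 (adjusted p = 0.00844), and ORAOV1, chosen after its values were seen, with log2 -0.26 (adjusted p = 0.0453). PPFIA1 held in all 15 settings, CTTN was lost without either kd.2 library (adjusted p up to 0.0823) and ORAOV1 in 10 settings.

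**Figure D5:**
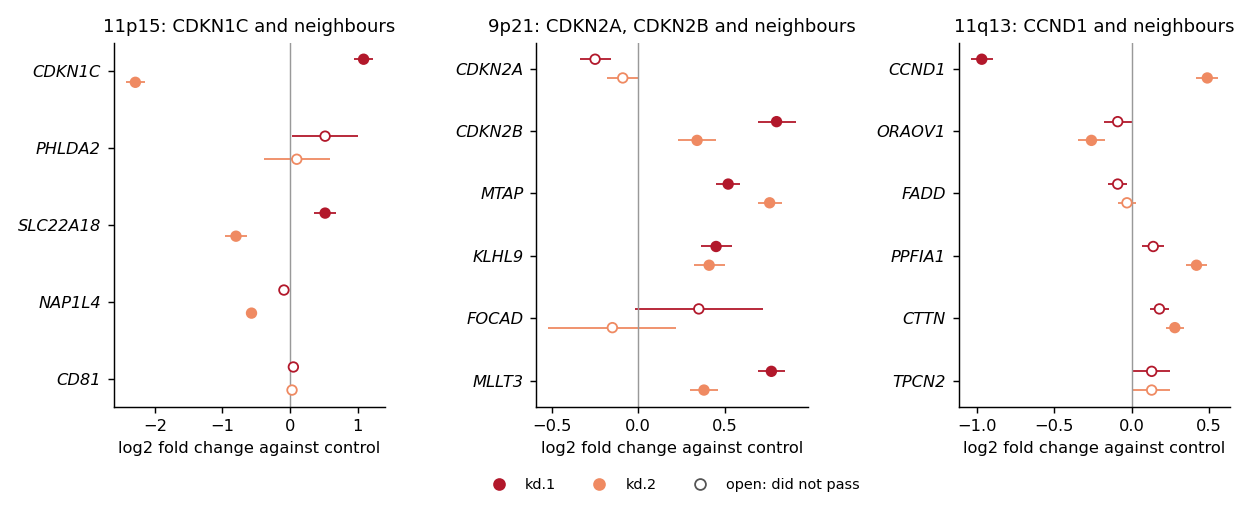
log2 fold change against control of CDKN1C, CDKN2A, CDKN2B and CCND1 (top rows) and of the tested neighbours on 11p15, 9p21 and 11q13 in kd.1 and in kd.2, with bars of 1 SE from limma; filled points passed an adjusted p of 0.05. On 11p15 SLC22A18 shares the signs of CDKN1C. On 9p21 MTAP, KLHL9 and MLLT3 lie right of 0 in both lines, while FOCAD has open points on either side of 0. On 11q13 no neighbour has a filled point for kd.1, where CCND1 lies at -0.97.

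For each of the 6 genes called in kd.1 or kd.2 against control, the 2 tested genes with the most similar profile over the 6 libraries were found by the root mean square (RMS) difference of centred log2 values. For CCND1 they were SLC1A3 (RMS 0.063) and SLC6A12 (RMS 0.073), both transporter genes. SLC1A3 stood at 33.0 and 31.7 FPKM in kd.1, at 79.1 and 83.2 FPKM in kd.2, and at 61.1 and 55.1 FPKM in the control. For CDKN1C they were SEPP1 (RMS 0.173), the selenoprotein P gene, and NCCRP1 (RMS 0.362). SEPP1 stood at 8.85 and 11.1 FPKM in kd.1, at 0.71 and 0.85 FPKM in kd.2, and at 4.08 and 3.87 FPKM in the control.

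The profiles nearest to the other called genes were BLCAP (RMS 0.033) and LIMK2 (0.036) for CCND3, CCNYL1 (0.066) and MRGPRE (0.073) for CDKN2B, ZNF830 (0.013) and PSMA6 (0.02) for CDKN2C, and BAX (0.077) and HYI (0.082) for CDKN2D. The measure is not scaled to the size of a gene's changes, so its values are not compared between genes.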

How the data were processed

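A single table of 21372 features over the 6 libraries was deposited by the authors. No label states its unit, and the name of the deposit speaks of gene counts. The values are not whole and their sums differ between libraries, which does not by itself separate FPKM from fractional counts. The deposited values were taken as FPKM, a unit that RSEM writes. Per the submitters' processing notes, the tools were RSEM 1.2.12, Bowtie2 2.2.5 and HISAT2 2.0.4 and the builds hg38 and GRCh38.p11; their roles are not given. Left out were 1869 features without a known gene. Genes that reached 1 FPKM in 2 or more libraries were taken to log2(FPKM + 0.1) and fitted in limma 3.58.1 (R 4.3.3). The model had a mean for each of the 3 groups, and its moderation was robust and followed the intensity; residual degrees of freedom were 3, and the median rose to 8.64 with moderation. The p-values were adjusted by Benjamini-Hochberg over all tested genes within a contrast. Fold changes are on this log2 scale and understate changes of low genes; SEs are from limma and SDs over 2 libraries. The script was tested on simulated data.

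With 2 libraries a group, an exact permutation test cannot go below 0.333, so none is given. Separate cultures are not stated for the duplicates, so p-values measure only how these libraries vary, and that spread may be technical. Correlations of replicate differences were 0.183 between kd.1 and kd.2, 0.022 between kd.1 and the control and -0.087 between kd.2 and the control. No cutoff was set for these, so pairing by replicate number is not settled. The main model took the libraries as unpaired, with a replicate block as an alternative. Whole reads could not be recovered from the low values, so no counting interval is given. Loci and coding sequences came from GENCODE 29 and promoters from RefSeq; protein sequences were not used here, and the coding sequences themselves are not reported here.

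The genes and gene lists were chosen with earlier results of these data known. Named from a list were up to 6 called genes with the smallest p in the mean of both knockdowns against control and up to 2 more called in kd.2 against kd.1. Alternatives were other pseudocounts, no filter, a filter on the mean, a common FPKM sum, median centring, a replicate block, plain moderation, only the groups compared, and each library left out.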

Additional observations from a re-analysis of the deposited data

Results flagged for a closer look

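In 4 of the 8 tested genes the change against control differed between the kd.2 and kd.1 lines when tested directly by limma, where 32.2% of all tested genes were called. The log2 fold change of kd.2 against kd.1 was -3.38 for CDKN1C (adjusted p = 5.55e-06), with both kd.2 libraries below and both kd.1 libraries above the controls. It was 1.45 for CCND1 (adjusted p = 8.3e-06), with both kd.2 libraries above and both kd.1 libraries below the controls. For CCND3 it was 0.31 (adjusted p = 0.00632), and for CDKN2B it was -0.47 (adjusted p = 0.0139). The summed simple epithelial and fibroblast markers also differed between these lines, and their part in these differences was not tested.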

How the results depend on the processing

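Of 20 calls of D cyclin and CDK inhibitor genes over the 4 contrasts, 10 held in every one of 15 alternatives (14 for the mean of both lines), 10 were lost in at least 1, and none changed sign while called; of 82 calls of other named genes, 36 held in all. Values of uncalled genes that changed sign were CCND3 in kd.2 against control at 0.05 and CDKN2A at 0.01 with a common FPKM sum, CDKN2A at 0.05 without control replicate 2, and CDKN1B in kd.2 against kd.1 at 0.01 with a common FPKM sum and 0.04 with median centring. With single libraries left out, CDKN1B in kd.2 against kd.1 ranged between -0.06 and 0.04 (0.0 without kd.2 replicate 2) and CDKN2A in kd.2 against control between -0.23 and 0.05. Fitting only the groups compared called 2015 genes in kd.1 (3166 otherwise) and 5517 in kd.2 against kd.1 (3496 otherwise); it could not be run for the mean of both lines. With no filter 2 D cyclin and inhibitor genes were called in kd.2 (4 otherwise), and with a common FPKM sum 3 in the mean of both lines (6 otherwise). With 1 library left out, where a lone library is assumed to vary like the other groups, between 1294 and 5531 genes were called in kd.1, 1282 and 6175 in kd.2 (4110 with all libraries), 1408 and 5507 in kd.2 against kd.1, and 1888 and 5864 in the mean (3769 with all libraries), each highest without a control library. The D cyclin and inhibitor genes called then numbered 3 to 8 in kd.1, 2 to 7 in kd.2, 2 to 5 in kd.2 against kd.1 and 3 to 8 in the mean. A common FPKM sum moved the median log2 fold change of all tested genes to 0.1 for kd.1 (0.02 otherwise) and 0.07 for kd.2 (-0.03 otherwise) and the share of calls that were higher to 69.0%, 61.3% and 68.3% in kd.1, kd.2 and the mean (54.1%, 41.5% and 46.5% otherwise); with median centring it was 44.1% in kd.1 and 49.5% in kd.2 against kd.1 (36.9% otherwise). The replicate block called 2930 genes in kd.1, 3891 in kd.2, 3340 in kd.2 against kd.1 and 3550 in the mean, and of the D cyclin and inhibitor calls it changed CDKN2D in kd.2 (adjusted p = 0.0591). Beyond the number of groups or libraries fitted, the cause was not tested. Depth is unknown, so how far it limits the lowest gene, CCND2, could not be given.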
